A study of Mus musculus with 6 samples.

Results

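DNA replication was followed through 41 of its genes, which encode the machinery that licenses origins, unwinds the helix, copies both strands, supplies deoxynucleotides and restores chromatin behind the fork. The genes were picked by name and function from the 17909 genes of a mouse RNA-seq table, and each of the 41 was listed in it. They fell into 8 roles: 6 subunits of the MCM helicase, 6 factors that activate it, 6 origin recognition and licensing factors, 6 polymerase and primase subunits, 6 genes of the sliding clamp and its loader, 4 of lagging strand joining and single-strand binding, 4 of deoxynucleotide supply and 3 of chromatin assembly and maintenance methylation.

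In G1, the origin recognition complex together with Cdc6 and Cdt1 loads the MCM helicase onto origins as an inactive double ring, and geminin later prevents a repeat of this loading within the same cycle. At the start of S phase, Cdc45 and the GINS complex join MCM to form the active helicase, primase and the polymerases begin synthesis, and the clamp PCNA tethers the polymerases and many other enzymes to the template. Transcription of many of these genes is restrained by the RB proteins in resting cells and is switched on by E2F factors before S phase, so their messages are widely used as a sign of cycling cells.

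The libraries came from a study of where connective tissue mast cells originate in the mouse embryo. Cells of C57BL/6xFVB embryos were sorted with a Csf1r-iCre fate-mapping model, in which Cre expressed from Csf1r marks early erythro-myeloid progenitors (EMPs) and what they give rise to. The macrophage-labelled library was from E11.5 fetal liver, and so were the EMP library and a library of mast cell progenitors (MCPs, a short form that the labels do not spell out), whose columns are named LiB7_neg and LiB7_pos. Further MCPs were from the E11.5 limb and the E14.5 limb, and the last library, titled as MCPs and described as mast cells, was from the skin at E16.5. Every group, the EMPs included, carries the same Cre and background, and the number of embryos pooled is not given in the sources used here. There was 1 library per group, so no test, standard error or p-value is possible, and differences below describe these libraries only. A smaller share of dividing cells and less of a transcript per cell cannot be told apart in bulk RNA.

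The estimated depth was 8550000 to 12100000 fragments, at which an FPKM of 1 (fragments scaled to transcript length and to mapped fragments of the library) on a transcript of 2 kb stands for 17.1 to 24.2 fragments. The skin library stood apart: 5675 of its genes reached 1 FPKM, against 8270 to 8754 in the other libraries, and its median-of-ratios size factor was 0.442, against 1.05 to 1.30. Values are therefore given as deposited and also scaled by these factors, and the replication genes are set beside the 9762 genes whose mean log2(FPKM + 1) lay within the same range (0.59 to 7.33). Markers matched the mast cell labels in most libraries: the 10 mast cell markers summed to 381 FPKM in liver MCPs, 791 in limb MCPs at E11.5, 3641 in limb MCPs at E14.5 and 15665 in skin, with Cpa3 the highest and with Tpsb2, Mcpt4 and Cma1 listed at 0 in liver MCPs and Gata2 listed at 0 in skin. Neutrophil genes (10, led by Mpo) also summed to 1051 FPKM in liver MCPs and 487 in limb MCPs at E11.5, against 10372 in EMPs, and to 2.01 in limb MCPs at E14.5 and 8.30 in skin. In the macrophage-labelled library 9 of the 10 macrophage markers had their highest value, and the list summed to 2725 FPKM, against 24.7 to 252 in the other libraries, of which Lyz2, a lysozyme gene that granulocytes also express, was 2633. Csf1r stood there at 34.1 FPKM, against at most 12.3 elsewhere, and C1qa at 0.17. The same library held 9986 FPKM over 8 eosinophil genes and 8106 over the neutrophil genes. The 11 erythroid markers measured summed to 340 FPKM in liver MCPs, against 3.06 to 66.0 in the other libraries. The part of these markers in the results on replication genes was not tested.

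Promoter windows were found for 33 of the 41 genes in RefSeq (GRCm38.p6, 250 bases before to 50 after the transcript start). They were searched on both strands for TTTCGCGC and TTTGGCGC, which are exact forms of the classical E2F site. Other forms of the site were not searched. As examples with and without a match, 4 windows are shown, chosen with the skin values known. Mcm5 (window chr8:75109259-75109558, plus strand), Mcm6 (chr1:128359656-128359955, minus strand) and Uhrf1 (chr17:56304063-56304362, plus strand) were among the genes far lower in skin, and Orc6 (chr8:85299382-85299681, plus strand) was among those that were not. The examples do not stand for all members. Tk1 had no match and was 30.5-fold lower in skin than in the limb at E14.5. Pola1 had a match and was level in that pair after scaling (a log2 difference of 0.08). Capitals mark the matches, and each sequence is written 5′ to 3′ on the strand of its gene.
Mcm5: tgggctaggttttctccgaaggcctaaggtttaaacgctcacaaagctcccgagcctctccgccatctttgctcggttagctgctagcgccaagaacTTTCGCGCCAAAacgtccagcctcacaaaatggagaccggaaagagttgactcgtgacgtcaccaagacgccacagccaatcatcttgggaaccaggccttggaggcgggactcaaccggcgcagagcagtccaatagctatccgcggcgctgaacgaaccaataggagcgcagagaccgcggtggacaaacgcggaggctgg
Mcm6: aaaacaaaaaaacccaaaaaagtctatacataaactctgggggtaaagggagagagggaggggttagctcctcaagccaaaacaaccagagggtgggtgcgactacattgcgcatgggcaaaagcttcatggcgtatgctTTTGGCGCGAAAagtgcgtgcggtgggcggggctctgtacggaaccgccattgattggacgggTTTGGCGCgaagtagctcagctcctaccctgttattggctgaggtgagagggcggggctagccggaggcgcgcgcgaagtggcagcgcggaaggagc
Uhrf1: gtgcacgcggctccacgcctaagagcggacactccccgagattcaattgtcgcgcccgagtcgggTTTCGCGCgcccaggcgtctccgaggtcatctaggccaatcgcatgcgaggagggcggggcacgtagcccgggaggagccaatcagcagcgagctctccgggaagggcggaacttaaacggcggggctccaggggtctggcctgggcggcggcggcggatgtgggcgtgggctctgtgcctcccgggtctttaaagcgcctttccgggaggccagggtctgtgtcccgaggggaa
Orc6: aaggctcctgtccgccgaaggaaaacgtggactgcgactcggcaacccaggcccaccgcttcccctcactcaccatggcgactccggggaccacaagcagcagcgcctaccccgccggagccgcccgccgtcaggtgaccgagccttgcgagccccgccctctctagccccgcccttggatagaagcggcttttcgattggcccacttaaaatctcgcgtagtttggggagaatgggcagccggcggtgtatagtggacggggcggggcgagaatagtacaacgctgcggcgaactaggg
The Mcm5 window holds TTTCGCGC with its first base 153 bases before the RefSeq start, overlapping by 4 bases a TTTGGCGC read on the other strand. Mcm6 carries the same pair in the reverse order and a further TTTGGCGC beginning 47 bases before the RefSeq start. GENCODE places the start of Mcm5 (chr8:75109569) beyond the end of its window and that of Mcm6 (chr1:128359664) near the end of its window. Distances from those starts would be longer. The Uhrf1 window, for the downstream of its 2 RefSeq starts, has TTTCGCGC alone, and the Orc6 window has neither motif.

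Of the 33 windows, 10 (30.3%) held at least 1 of the motifs: those of Mcm3, Mcm5, Mcm6, Mcm7, Orc1, Cdt1, Pola1, Rfc3, Lig1 and Uhrf1. The share was 0.929% over 27025 genes with a window and 1.95% over 7590 such genes of like expression. Among other gene lists, 5 of 29 windows of other replication factors held a motif, 2 of 37 of mitosis genes and 1 of 23 of ribosome biogenesis genes. These shares describe letters in a window, and no binding was measured. No window was used for Prim2, Gins1, Gmnn, Pole, Gins2, Gins4, Rfc2 and Mcm4.

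Taken as a share of the summed FPKM of its library, the 41 genes made up 0.578% of the macrophage-labelled library, 0.699% of EMPs, 0.611% of liver MCPs, 0.445% of limb MCPs at E11.5, 0.591% of limb MCPs at E14.5 and 0.154% of skin cells. The share was highest in EMPs, lower in the limb at E11.5 than at E14.5 or in liver MCPs, and far below the rest in skin. The median gene of the 41 stood at 13.5 FPKM in the macrophage-labelled library, 16.2 in EMPs, 15 in liver MCPs, 8.52 and 11.4 in limb MCPs at E11.5 and E14.5, and 1.46 in skin. Along liver, limb E11.5, limb E14.5 and skin, 31 of the 41 genes were lower, higher and lower again, a pattern held by 29.98% of the genes of like expression. After scaling it was held by 27 of the 41 and by 17.7% of the genes of like expression.

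**Figure D1:**
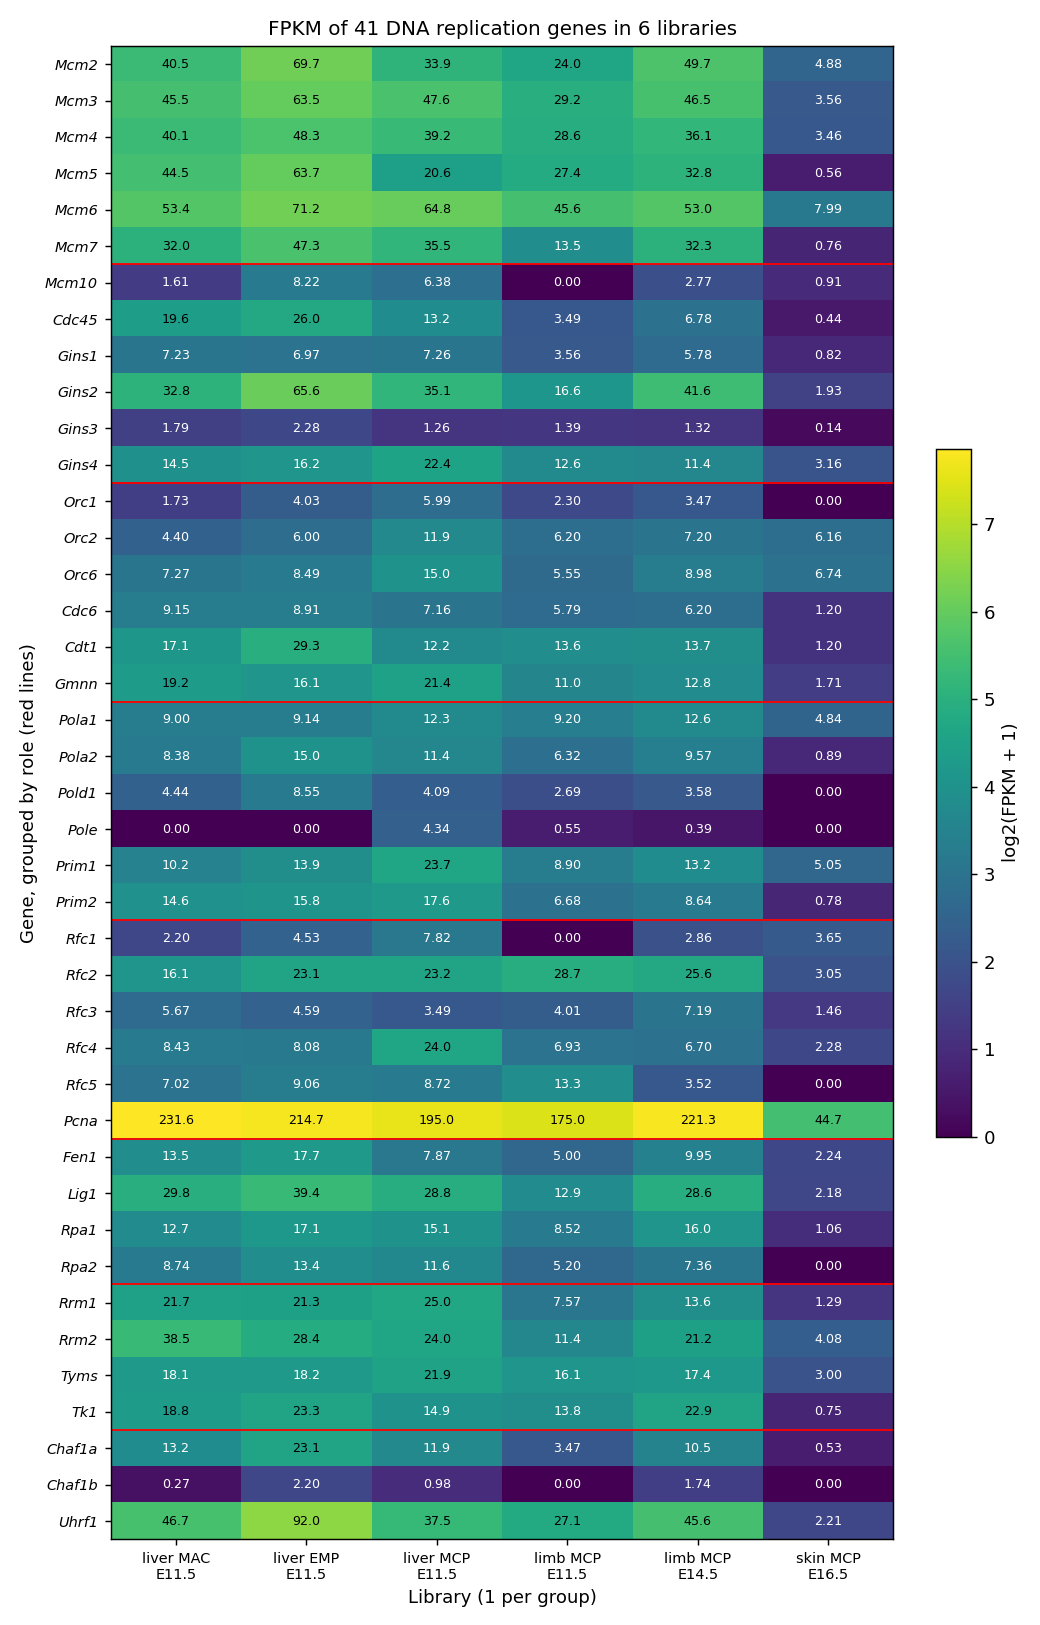
FPKM of the 41 replication genes (rows, grouped by role between red lines) in the 6 libraries (columns, 1 library each), with colour as log2(FPKM + 1) and the deposited value printed in each cell. Pcna is the brightest row in every library, and in the skin column it is the only gene above 10 FPKM.

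The MCM subunits were abundant outside skin, and their levels were spread widest in skin. Their proteins form the ring that unwinds DNA ahead of the fork. Mcm2 (chr6:88883474-88898780) had 40.5 FPKM in the macrophage-labelled library, 69.7 in EMPs, 33.9 in liver MCPs, 23.97 in limb MCPs at E11.5, 49.7 in limb MCPs at E14.5 and 4.88 in skin cells. Mcm5 (chr8:75109569-75128439) had 44.5 FPKM in the macrophage-labelled library, 63.7 in EMPs, 20.6 in liver MCPs, 27.4 in limb MCPs at E11.5, 32.8 in limb MCPs at E14.5 and 0.56 in skin cells. Mcm6 (chr1:128331590-128359664) had 53.4 FPKM in the macrophage-labelled library, 71.2 in EMPs, 64.8 in liver MCPs, 45.6 in limb MCPs at E11.5, 53 in limb MCPs at E14.5 and 7.99 in skin cells. All 3 were highest in EMPs and lowest in skin, and Mcm5 alone of the 6 subunits was higher in the limb at E11.5 than in liver MCPs. Mcm3 (chr1:20802968-20820312) ranged over 29.2 to 63.5 FPKM in the libraries other than skin and was 3.56 in skin, and Mcm4 (chr16:15623897-15637400) over 28.6 to 48.3 with 3.46 in skin. Mcm7 (chr5:138164583-138172422) ranged from 13.5 in the limb at E11.5 to 47.3 in EMPs, and was 0.76 in skin. Within a library the highest subunit, always Mcm6, exceeded the lowest 1.67-fold in the macrophage-labelled library, 1.51-fold in EMPs, 3.15-fold in liver MCPs, 3.39-fold in limb MCPs at E11.5, 1.64-fold in limb MCPs at E14.5 and 14.3-fold in skin. Mcm5 was the lowest subunit in liver MCPs and skin, and Mcm7 in the other 4 libraries.

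Among the factors that turn the loaded ring into an active helicase, Gins2 and Cdc45 were the most abundant in EMPs. Gins2, a GINS subunit, had 32.8 FPKM in the macrophage-labelled library, 65.6 in EMPs, 35.1 in liver MCPs, 16.6 in limb MCPs at E11.5, 41.6 in limb MCPs at E14.5 and 1.93 in skin cells. Cdc45, the third component of the active helicase, had 19.6 FPKM in the macrophage-labelled library, 26 in EMPs, 13.2 in liver MCPs, 3.49 in limb MCPs at E11.5, 6.78 in limb MCPs at E14.5 and 0.44 in skin cells. Gins2, like the MCM subunits, was higher in the limb at E14.5 than at E11.5. Cdc45 was higher at E14.5 too, but it stayed under 7 FPKM in every library after the liver. Gins4 was flatter, at 11.4 to 22.4 FPKM outside skin and 3.16 in skin. Gins1 lay between 0.82 and 7.26 FPKM and Gins3 between 0.14 and 2.28. Mcm10, which helps start unwinding, was 8.22 FPKM in EMPs and 6.38 in liver MCPs, was listed at 0 in the limb at E11.5, and stood at 1.61, 2.77 and 0.91 in the macrophage-labelled, limb E14.5 and skin libraries.

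Origin recognition genes did not share the MCM order. Orc2 (chr1:58462771-58505109), a core ORC subunit, had 4.40 FPKM in the macrophage-labelled library, 6 in EMPs, 11.9 in liver MCPs, 6.20 in limb MCPs at E11.5, 7.20 in limb MCPs at E14.5 and 6.16 in skin cells. Orc6 (chr8:85299632-85308278), the smallest ORC subunit, had 7.27 FPKM in the macrophage-labelled library, 8.49 in EMPs, 15 in liver MCPs, 5.55 in limb MCPs at E11.5, 8.98 in limb MCPs at E14.5 and 6.74 in skin cells. Both were highest in liver MCPs, and their skin values lay within the range of the other libraries. Orc1, the ORC subunit that binds and releases with the cycle, behaved otherwise, with 5.99 FPKM in liver MCPs, 1.73 to 4.03 in the remaining libraries outside skin, and a listing at 0 in skin. Cdc6, the loader that joins ORC, was 5.79 to 9.15 FPKM outside skin and 1.20 in skin.

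The loader Cdt1 and its inhibitor geminin (Gmnn) were ordered differently. Cdt1 had 17.1 FPKM in the macrophage-labelled library, 29.3 in EMPs, 12.2 in liver MCPs, 13.6 in limb MCPs at E11.5, 13.7 in limb MCPs at E14.5 and 1.20 in skin cells, and Gmnn had 19.2 FPKM in the macrophage-labelled library, 16.1 in EMPs, 21.4 in liver MCPs, 10.96 in limb MCPs at E11.5, 12.8 in limb MCPs at E14.5 and 1.71 in skin cells. Cdt1 peaked in EMPs and Gmnn in liver MCPs, so that Cdt1 per Gmnn was 0.888 in the macrophage-labelled library, 1.82 in EMPs, 0.572 in liver MCPs, 1.24 and 1.07 in limb MCPs at E11.5 and E14.5, and 0.702 in skin. Cdt1 protein is present mainly in G1 and geminin from S phase on, but both are set largely by protein breakdown, which RNA does not show.

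Polymerase and primase subunits were lower in level than MCM. Prim1, the catalytic primase subunit, had 10.2 FPKM in the macrophage-labelled library, 13.9 in EMPs, 23.7 in liver MCPs, 8.90 in limb MCPs at E11.5, 13.2 in limb MCPs at E14.5 and 5.05 in skin cells. Prim2, the large primase subunit, had 14.6 FPKM in the macrophage-labelled library, 15.8 in EMPs, 17.6 in liver MCPs, 6.68 in limb MCPs at E11.5, 8.64 in limb MCPs at E14.5 and 0.78 in skin cells. The primase partners stayed close in EMPs, but in skin Prim1 stood at 38.3% and Prim2 at 9.03% of the level in the limb at E14.5. Pola1, the catalytic subunit of the polymerase that works with primase, was 9 to 12.6 FPKM outside skin and 4.84 in skin, while Pola2, its accessory subunit, was 6.32 to 14.99 outside skin and 0.89 in skin. Pold1, the catalytic subunit of the lagging strand polymerase, was 2.69 to 8.55 FPKM outside skin and listed at 0 in skin. Pole, its leading strand counterpart, was 4.34 FPKM in liver MCPs, 0.55 and 0.39 in the limb at E11.5 and E14.5, and listed at 0 in the other 3 libraries. Every dividing cell needs Pole, so its listing at 0 is not read as absence.

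Pcna (chr2:132249162-132253314), the sliding clamp, was the most abundant of the 41 genes in each library, with 232 FPKM in the macrophage-labelled library, 215 in EMPs, 195 in liver MCPs, 175 in limb MCPs at E11.5, 221 in limb MCPs at E14.5 and 44.7 in skin cells. Its value was flat outside skin, and pseudogene copies named Pcna-ps1 and Pcna-ps2 in the annotation may share its reads. The loader subunits were lower and went separate ways. Rfc4 (chr16:23113943-23127737) had 8.43 FPKM in the macrophage-labelled library, 8.08 in EMPs, 24.01 in liver MCPs, 6.93 in limb MCPs at E11.5, 6.70 in limb MCPs at E14.5 and 2.28 in skin cells. Rfc1 (chr5:65261850-65335670), the large subunit, had 2.20 FPKM in the macrophage-labelled library, 4.53 in EMPs, 7.82 in liver MCPs, 0 in limb MCPs at E11.5, 2.86 in limb MCPs at E14.5 and 3.65 in skin cells. Rfc4 stood out in liver MCPs alone, and Rfc1, listed at 0 in the limb at E11.5, was the sole gene of the 41 with a higher deposited value in skin than in the limb at E14.5. Rfc2 was highest in the limb at E11.5 (28.7 FPKM) and 16.1 to 25.6 in the other libraries outside skin. Rfc5 was likewise highest in the limb at E11.5 (13.3 FPKM), was 3.52 in the limb at E14.5 and was listed at 0 in skin, and Rfc3 lay between 1.46 and 7.19 FPKM.

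Lagging strand and single-strand binding genes were highest in EMPs and lowest in skin. Lig1, the ligase that seals Okazaki fragments, had 29.8 FPKM in the macrophage-labelled library, 39.4 in EMPs, 28.8 in liver MCPs, 12.9 in limb MCPs at E11.5, 28.6 in limb MCPs at E14.5 and 2.18 in skin cells. Fen1, the nuclease that trims them, had 13.5 FPKM in the macrophage-labelled library, 17.7 in EMPs, 7.87 in liver MCPs, 5 in limb MCPs at E11.5, 9.95 in limb MCPs at E14.5 and 2.24 in skin cells. Outside skin, both were lowest in the limb at E11.5. Rpa1 and Rpa2, which coat single-stranded DNA, were 8.52 to 17.1 and 5.2 to 13.4 FPKM outside skin, and stood at 1.06 FPKM and listed at 0 in skin.

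The deoxynucleotide genes were less EMP-centred. Rrm2, the small ribonucleotide reductase subunit and the one that cycles, had 38.5 FPKM in the macrophage-labelled library, 28.4 in EMPs, 24.02 in liver MCPs, 11.4 in limb MCPs at E11.5, 21.2 in limb MCPs at E14.5 and 4.08 in skin cells. Rrm1, the large subunit, had 21.7 FPKM in the macrophage-labelled library, 21.3 in EMPs, 25.03 in liver MCPs, 7.57 in limb MCPs at E11.5, 13.6 in limb MCPs at E14.5 and 1.29 in skin cells. Rrm2 was highest in the macrophage-labelled library and Rrm1 in liver MCPs, and Rrm2 per Rrm1 ranged from 0.96 in liver MCPs to 3.16 in skin. Tyms, thymidylate synthase, was 16.1 to 21.9 FPKM outside skin and 3 in skin, and it has an annotated pseudogene copy. Tk1 (chr11:117815526-117826092), the S phase thymidine kinase, had 18.8 FPKM in the macrophage-labelled library, 23.3 in EMPs, 14.9 in liver MCPs, 13.8 in limb MCPs at E11.5, 22.9 in limb MCPs at E14.5 and 0.75 in skin cells. It was nearly level between EMPs and the limb at E14.5, lower in the 3 remaining libraries outside skin, and lowest in skin.

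Uhrf1 (chr17:56303321-56323486), which brings the maintenance methyltransferase to newly copied DNA, had 46.7 FPKM in the macrophage-labelled library, 92.01 in EMPs, 37.5 in liver MCPs, 27.1 in limb MCPs at E11.5, 45.6 in limb MCPs at E14.5 and 2.21 in skin cells. Chaf1a, the large subunit of the histone chaperone CAF-1, had 13.2 FPKM in the macrophage-labelled library, 23.1 in EMPs, 11.9 in liver MCPs, 3.47 in limb MCPs at E11.5, 10.5 in limb MCPs at E14.5 and 0.53 in skin cells. Uhrf1 and Chaf1a were highest in EMPs and lowest in skin. Chaf1b, the middle subunit, reached at most 2.20 FPKM and was listed at 0 in the limb at E11.5 and in skin, so it is not read further.

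Over the 41 genes, the highest deposited value fell in EMPs for 21, in liver MCPs for 13, in the macrophage-labelled library for 3, in each limb library for 2 and in skin for 0. EMPs held the highest value of 26.2% of the genes of like expression. Skin held the lowest value for 35 of the 41, against 65.5% of the genes of like expression. After scaling, the peaks were EMPs for 18, the macrophage-labelled library for 9, liver MCPs for 5, skin for 4 (Orc2, Orc6, Pola1 and Rfc1), limb E14.5 for 3 and limb E11.5 for 2. Of the genes of like expression, 16.4% then peaked in EMPs, 18.3% in the macrophage-labelled library and 14.1% in liver MCPs. The shares were 28.5% for skin, 9.34% for limb E14.5 and 13.4% for limb E11.5. Skin was then lowest for 31 of the 41, against 38.7% of the genes of like expression. Some orders given above for deposited values changed with scaling. Rrm1 and Gmnn then peaked in the macrophage-labelled library rather than in liver MCPs, and Rpa1 in the limb at E14.5 rather than in EMPs.

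The design gives 6 comparisons, and adjacent ones share a library, so they are not independent of each other. The call was a 2-fold rule: a step of 1 or more in log2(FPKM + 1), with 10 FPKM or more on at least 1 side. A member that passes this filter through 1 library alone has to be higher in that library, though it need not reach the call. The filter thus tilts the direction of the counts, so medians over all 41 genes come first.

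**Figure D2:**
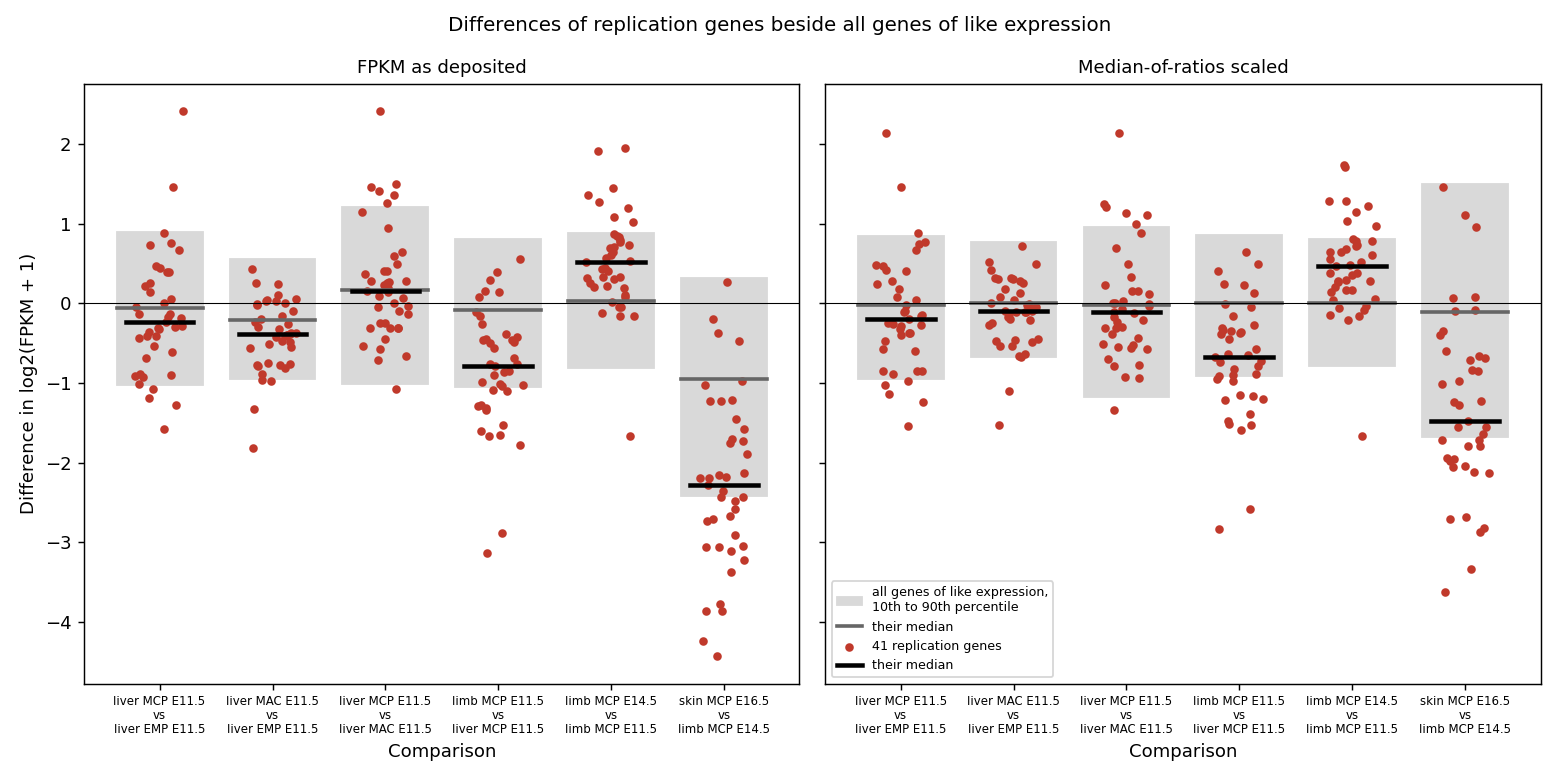
Differences in log2(FPKM + 1) of the 41 replication genes (red points, black bar for their median) in the 6 comparisons, as deposited (left) and scaled (right), beside the 10th to 90th percentile (grey box) and median (grey bar) of all genes of like expression. The black bars sit near the grey ones in the liver comparisons, below for limb E11.5 against liver MCPs (-0.79 against -0.08 as deposited), above for limb E14.5 against limb E11.5 (0.52 against 0.03) and below for skin against limb E14.5 (-2.28 against -0.95).

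Liver MCPs differed from liver EMPs in a part of the replication genes. The median over the 41 was -0.23, against -0.06 for the genes of like expression, and scaled values gave -0.20 against -0.03. Rfc4 was called higher (24.01 in liver MCPs, 8.08 FPKM in EMPs, 2.97-fold), and it remained so after scaling. Mcm5 fell to 20.6 FPKM in liver MCPs, against 63.7 in EMPs (3.09-fold lower), Uhrf1 to 37.5 in liver MCPs, against 92.0 in EMPs (2.45-fold lower), and Cdt1 to 12.2 in liver MCPs, against 29.3 in EMPs (2.39-fold lower). Fen1 (7.87 in liver MCPs, 17.7 FPKM in EMPs) and Mcm2 (33.9 in liver MCPs, 69.7 FPKM in EMPs) were called lower as well, Mcm2 only in the deposited values. These were 1 higher and 5 lower calls among the 30 members that passed the filter, where 8.52% of the 3369 genes passing it were called higher and 15.9% lower. Scaled, 1 was called higher and 4 lower of 28, where 9.13% and 14.6% of 2728 genes were. The members' shares were thus near or below the background.

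The 6 MCM subunits had a median of -0.41 and were lower in liver MCPs without exception, while Orc1, Orc2 and Orc6 were higher by 0.47, 0.89 and 0.75, short of the call. The other subunits of the origin complex, which are outside the 41 genes, were mixed: Orc3 differed by 0.12, Orc4 by -0.25, and Orc5 by 1.12 at levels too low for the filter (4.62 in liver MCPs, 1.58 FPKM in EMPs). Primase Prim1 (0.73) and Rfc1 (0.67) were also on the higher side without reaching the call. Of 33 other replication factors, 17 passed the filter and 2 were called higher, Tipin of the fork protection complex (41.8 in liver MCPs, 7.75 FPKM in EMPs) and Dbf4, the activator of the Cdc7 kinase (11.9 in liver MCPs, 4.54 FPKM in EMPs), and 2 were called lower, Pold2 and Dna2. Of 33 G1/S regulators, 13 passed, and 3 were called lower and 0 higher: Cdk6 (56.4 in liver MCPs, 154 FPKM in EMPs), E2f8 (11.7 in liver MCPs, 30.6 FPKM in EMPs) and Tfdp1 (48.5 in liver MCPs, 113.7 FPKM in EMPs). Mitosis genes had a median of 0.03, with Cenpa alone of the 32 that passed (42 in all) called higher and 0 lower. In the same pair neutrophil genes summed to 1051 FPKM in liver MCPs and 10372 in EMPs, with Mpo at 878 in liver MCPs and 8174 in EMPs. Macrophage markers summed to 74.4 FPKM in liver MCPs and 252 in EMPs, erythroid markers to 340 in liver MCPs and 66.0 in EMPs, and mast cell markers to 381 in liver MCPs and 129 in EMPs.

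In the macrophage-labelled library, no replication gene passed the call against EMPs. The deposited median was -0.39, against -0.21 for the genes of like expression, and 32 of the 41 were lower. After scaling the median was -0.09, against 0.00, and 26 of the 41 were lower. Of 26 members that passed the filter, 0 were called higher and 0 lower, where 5.85% and 10.5% of 3179 genes were called as deposited. Scaled, the counts were again 0 and 0 of 26, where 9.75% and 4.15% of 2749 genes were called. The largest differences of well expressed members were those of Gins2 (32.8 in the macrophage-labelled library, 65.6 FPKM in EMPs, a difference of -0.98) and Uhrf1 (46.7 in the macrophage-labelled library, 92.0 FPKM in EMPs, -0.96), and on the other side Rrm2 (38.5 in the macrophage-labelled library, 28.4 FPKM in EMPs, 0.42). Of 30 ribosome biogenesis genes, 23 passed and 14 were called lower in the same pair, with a median of -1.22. Of 22 nucleotide supply genes, 12 passed and 1 was called higher, Samhd1, a phosphohydrolase that degrades deoxynucleotides (37.3 in the macrophage-labelled library, 14.97 FPKM in EMPs), while 5 were called lower, among them Cad (6.27 in the macrophage-labelled library, 27.6 FPKM in EMPs), which starts pyrimidine synthesis. Mitosis genes had a median of 0.15. Eosinophil genes summed to 9986 FPKM under the macrophage label and 251 in EMPs, macrophage markers to 2725 under the macrophage label and 252 in EMPs, and neutrophil genes to 8106 under the macrophage label and 10372 in EMPs.

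Liver MCPs set against the macrophage-labelled library gave no common direction. The median was 0.15, against 0.17 for the genes of like expression, and it turned to -0.11 after scaling, against -0.02. The genes called higher in liver MCPs were 3: Rfc4 (24.01 in liver MCPs, 8.43 FPKM in the macrophage-labelled library), Orc2 (11.9 in liver MCPs, 4.40 FPKM in the macrophage-labelled library) and Prim1 (23.7 in liver MCPs, 10.2 FPKM in the macrophage-labelled library). Mcm5 was called lower (20.6 in liver MCPs, 44.5 FPKM in the macrophage-labelled library). The counts were 3 and 1 of 30 members that passed, where 17.9% and 15.7% of 3254 genes were called higher and lower. Scaled, Rfc4 and Mcm5 were still called, 1 and 1 of 26, where 10.8% and 22.4% of 2876 genes were called. With the filter, fewer members than genes in general differed in this pair. Without a filter 7 of 41 were called higher and 1 lower, where 8.74% and 6.23% of all genes were. Of the 22 ribosome biogenesis genes that passed the filter (30 in all), 14 were called higher in liver MCPs. Eosinophil genes summed to 84.8 FPKM in liver MCPs and 9986 under the macrophage label, and neutrophil genes to 1051 in liver MCPs and 8106 under the macrophage label.

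Limb MCPs at E11.5 were lower than liver MCPs of the same day over most of the replication genes. The median was -0.79, against -0.08 for the genes of like expression, and 35 of the 41 were lower. Scaling left it at -0.67, against 0.00, with 35 still lower. Of 30 members that passed the filter, 12 were called lower: Rrm1 (7.57 in limb, 25.0 FPKM in liver), Rrm2, Rfc4 (6.93 in limb, 24.01 FPKM in liver), Cdc45 (3.49 in limb, 13.2 FPKM in liver), Chaf1a (3.47 in limb, 11.9 FPKM in liver), Mcm7 (13.5 in limb, 35.5 FPKM in liver), Prim1, Prim2, Orc6, Gins2, Lig1 and Rpa2. None was called higher, where 8% of 3136 genes were called higher and 14.1% lower. Of the 41, 29 reached 10 FPKM in liver MCPs and 18 in the limb. Members that passed through liver MCPs alone could not be called higher. Scaled, 7 of 25 were called lower (Rrm1, Rfc4, Cdc45, Mcm7, Prim1, Prim2 and Orc6) and 0 higher, where 9.89% of 2588 genes were called higher and 10.4% lower.

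A few genes went against this direction without reaching the call, namely Mcm5 (0.39), Rfc5 (0.56), Rfc2 (0.30), Rfc3 (0.16), Cdt1 (0.14) and Gins3 (0.08). A further 3 members were listed at 0 in the limb at E11.5, the shallowest library by the estimate: Mcm10, Rfc1 and Chaf1b, at 6.38, 7.82 and 0.98 FPKM in liver MCPs. The lower level was not particular to replication. Mitosis genes had a median of -0.83 with 12 called lower of the 30 that passed (42 in all), led by the spindle checkpoint kinase gene Bub1b (4.94 in limb, 18.9 FPKM in liver), and ribosome biogenesis genes had -0.77 with 11 called lower and 1 higher of 21 (30 in all). Of 33 other replication factors, 14 passed and 5 were called lower, with Tipin the largest (7.45 in limb, 41.8 FPKM in liver), and of 33 G1/S regulators 12 passed and 0 were called in either direction. Erythroid markers, summed, were 51.7 FPKM in the limb and 340 in the liver MCPs, mast cell markers 791 FPKM in the limb and 381 in the liver MCPs, and neutrophil genes 487 FPKM in the limb and 1051 in the liver MCPs.

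**Figure D3:**
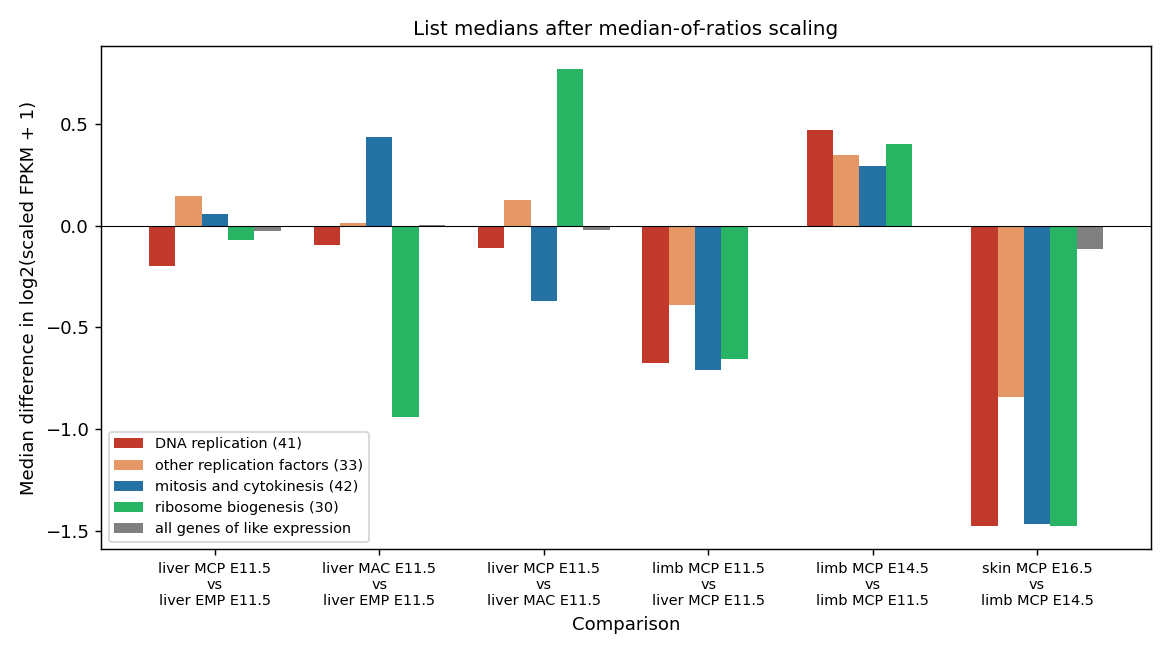
Median difference in log2(scaled FPKM + 1) of 4 gene lists and of all genes of like expression in the 6 comparisons, as bars from 0. The bars of replication, mitosis and ribosome biogenesis lie close together in the 3 comparisons along limb and skin (-1.48, -1.47 and -1.48 for skin), and apart in the 2 comparisons with the macrophage-labelled library.

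Limb MCPs at E14.5 had more of most replication transcripts than limb MCPs at E11.5. The median was 0.52, against 0.03 for the genes of like expression, and 35 of the 41 were higher at E14.5. Scaled, it was 0.47, against 0.00, with 34 higher. Of 23 members that passed the filter, 5 were called higher: Chaf1a (10.5 at E14.5, 3.47 FPKM at E11.5), Gins2 (41.6 at E14.5, 16.6 FPKM at E11.5, 2.5-fold), Mcm7 (32.3 at E14.5, 13.5 FPKM at E11.5, 2.39-fold), Lig1 (28.6 at E14.5, 12.9 FPKM at E11.5) and Mcm2 (49.7 at E14.5, 23.97 FPKM at E11.5, 2.07-fold). Rfc5 was called lower (3.52 at E14.5, 13.3 FPKM at E11.5, 3.79-fold lower). These 5 and 1 calls stand beside 8.42% higher and 6.23% lower of 2970 genes. Scaled, 3 (Gins2, Mcm7 and Lig1) were called higher and Rfc5 lower of 22, where 7.57% and 6.61% of 2510 genes were called.

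The 6 MCM subunits were higher at E14.5 without exception, with a median of 0.49. Origin recognition and licensing genes differed less (median 0.20), and the clamp and clamp loader had 3 genes higher and 3 lower. Mitosis genes had a median of 0.34 with 0 called of the 24 that passed (42 in all), and ribosome biogenesis genes 0.45 with 2 called higher of 22 (30 in all). Of 33 G1/S regulators, 12 passed and 2 were called higher, the cyclin-dependent kinase inhibitor gene Cdkn1a (57.1 at E14.5, 21.99 FPKM at E11.5) and E2f8 (20.01 at E14.5, 9.13 FPKM at E11.5), a repressor that is itself an E2F target. In the same pair, neutrophil genes summed to 2.01 FPKM at E14.5 and 487 at E11.5, eosinophil genes to 1.83 at E14.5 and 92.7 at E11.5, and mast cell markers to 3641 at E14.5 and 791 at E11.5. Their part in the difference was not tested.

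Skin cells at E16.5 had far lower replication transcripts than limb MCPs at E14.5, a pair that differs in tissue and in age at once. The deposited median was -2.28, against -0.95 for the genes of like expression, and 40 of the 41 were lower. The whole skin library was lower, and scaled, the median was -1.48, against -0.11, with 36 lower and 5 higher. As deposited, 22 of 22 members that passed the filter were called lower, where 62.7% of 2759 genes were, and 0 higher, where 5.65% were. Of the 41, only Pcna reached 10 FPKM in skin, against 22 members in the limb. Members that passed through the limb alone could not be called higher, so this count leans to lower calls by the filter itself. Scaled, 15 of 22 were called lower, where 20.4% of 3094 genes were, and 1 higher (Orc2), where 33.4% were.

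The deepest falls among the called members were those of 2 MCM subunits. Mcm5 fell to 0.56 FPKM in skin, against 32.8 in the limb (58.5-fold lower), and Mcm7 to 0.76 in skin, against 32.3 in the limb (42.4-fold lower), both values in skin resting on few fragments. Tk1 fell to 0.75 FPKM in skin, against 22.9 in the limb (30.5-fold lower), Gins2 to 1.93 in skin, against 41.6 in the limb (21.6-fold lower), and Uhrf1 to 2.21 in skin, against 45.6 in the limb (20.6-fold lower). Scaled, the 6 MCM subunits were called lower without exception (median -1.96), as were Gins2, Cdt1, Gmnn, Rfc2, Lig1, Rpa1, Rrm1, Tk1 and Uhrf1. Pcna fell to 44.7 FPKM in skin, against 221.3 in the limb (4.95-fold lower), and its scaled difference of -0.84 did not reach the call.

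By role, the scaled medians in skin against the limb were -2.13 for the 3 chromatin genes, -2.05 for the 4 lagging strand and single-strand binding genes, -1.96 for the 6 MCM subunits and -1.31 for the 4 deoxynucleotide genes. They were smaller for origin recognition and licensing (-0.98), polymerases and primase (-0.98), helicase activation (-0.84) and the clamp and its loader (-0.76), and members at 0 in skin enter these medians at that listing. Adding 1 before the log2 shrinks differences at low FPKM, so this order of roles is not an order of folds. Gins3 was 9.43-fold lower by deposited values and enters at -0.66, while Rrm2 was 5.20-fold lower and enters at -0.85.

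A small group stood near or above its limb level in skin. Rfc1 stood at 3.65 FPKM in skin and 2.86 in the limb, Orc2 at 6.16 in skin and 7.20 in the limb, and Orc6 at 6.74 in skin and 8.98 in the limb. On the scaled values these 3 differed by 1.47, 1.11 and 0.96, and Pola1 (0.08) and Prim1 (0.07) were level. Such values were common among genes after scaling. The genes of like expression had a median of -0.11, and 33.4% of all genes that passed the filter were called higher in skin. With size factors over genes of at least 1 in all libraries, 0 of 22 members were called higher, where 24.9% of genes were. Orc1, Pold1, Pole, Rfc5, Rpa2 and Chaf1b were listed at 0 in skin, against 0.39 to 7.36 FPKM in the limb, and no fold is given for them. In skin the transcription factor gene Gata2 was also listed at 0, against 141.9 FPKM in the limb, so a listing at 0 there is not read as absence.

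**Figure D4:**
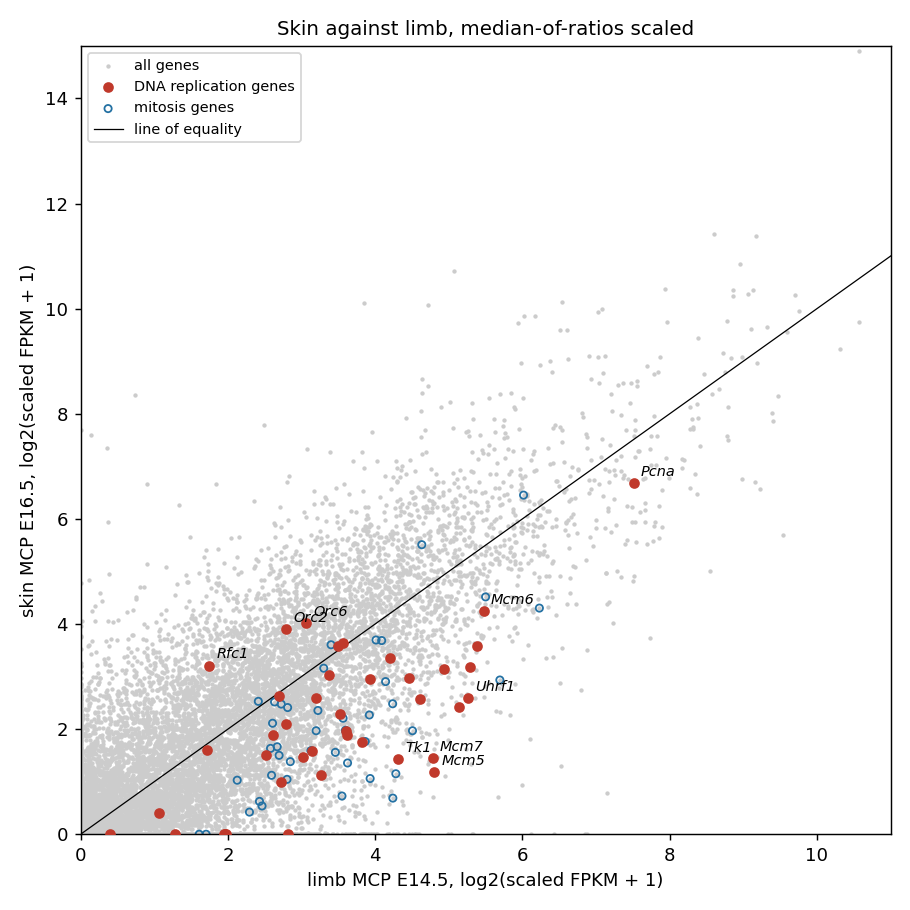
Scaled values in skin cells at E16.5 (vertical, log2) against limb MCPs at E14.5 (horizontal, log2) for all genes (grey), the 41 replication genes (red) and mitosis genes (open blue), with the line of equality. Most red points lie below the line with Mcm5, Mcm7 and Tk1 furthest from it among those named, and Orc2, Orc6 and Rfc1 lie above it.

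The other lists of the cycle were low in skin as well. Scaled medians were -1.47 for 42 mitosis genes, -1.48 for 30 ribosome biogenesis genes, -1.72 for 22 nucleotide supply genes, -0.84 for 33 other replication factors, -0.58 for 15 genes of replication-coupled chromatin and cohesion and -0.90 for 33 G1/S regulators. As deposited, where 62.7% of all genes that passed were called lower, the same was true of 21 of the 23 mitosis genes that passed, with Cdca8 (0.27 in skin, 21.8 FPKM in limb) and Ccnb2 (2.94 in skin, 61.8 FPKM in limb) among the largest. It was true of 18 of 21 ribosome biogenesis, 9 of 11 G1/S, 7 of 9 other replication, 7 of 8 nucleotide supply and 6 of 8 chromatin and cohesion genes, with 0 called higher in these 6 lists. Scaled, where 20.4% of all genes were called lower and 33.4% higher, 15 of 21 mitosis, 10 of 19 ribosome biogenesis, 5 of 11 G1/S, 4 of 10 other replication, 5 of 7 nucleotide supply and 3 of 8 chromatin and cohesion genes were called lower. On the scaled values 1 ribosome biogenesis, 1 other replication and 1 chromatin and cohesion gene were called higher. Pold2, the accessory subunit that partners Pold1, was 0.07 FPKM in skin and 17.7 in the limb. In the same pair mast cell markers summed to 15665 FPKM in skin and 3641 in the limb, of which Cpa3 alone was 13494 FPKM in skin and 1856 in the limb. The part of this in the lower values of other genes was not tested.

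Genes with and without a promoter match were compared as a description. In skin against the limb at E14.5, the 10 members with either motif had a median of -2.98 (range -4.44 to -1.21), and the 23 without had -2.18 (range -3.77 to 0.27). In limb MCPs at E11.5 against liver MCPs alone the order was the other way, with -0.48 for the 10 and -0.84 for the 23. Liver MCPs against EMPs gave -0.41 and -0.23, and the macrophage-labelled library against EMPs -0.49 and -0.37. Liver MCPs against the macrophage-labelled library gave 0.01 and 0.23, and limb E14.5 against limb E11.5 gave 0.54 and 0.61. Ranges overlapped in every comparison. The sets were not matched for level, and adding 1 before the log2 shrinks differences of low genes.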

How the data were processed

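RNA-seq was measured in 6 libraries of sorted mouse embryonic cells, 1 per group, and groups were taken from the labels. The authors deposited a table of FPKM values (2 decimals), for which the submitters' processing notes name RSEM, Bowtie2 and the build mm10 (GRCm38); tool versions are not stated in these sources. Of 17913 rows, 4 with a repeated name were dropped. All 6 columns matched a sample. FPKM divides by the library's mapped fragments, so a very abundant gene lowers the values of the others. RSEM also shares reads between similar sequences.

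The 41 genes, the other lists and the roles were chosen with earlier results of these data known. Differences are of log2(FPKM + 1), and folds are ratios of FPKM. A call needed a difference of 1 or more, with 10 FPKM or more in 1 of the libraries compared. Scaled values were divided by median-of-ratios size factors over 8774 genes above 0 in all libraries, and the filter was then applied to them. Genes of like expression had a mean log2(FPKM + 1) within the range of the 41. The depth estimate, whose method was chosen after seeing the data, is the library total that brought the fragments of 1409 genes closest to whole numbers, with 76.2% to 80.6% of values within 0.2 of one (40% by chance). Genes outside the 41 were named by rule: up to 4 per direction, list and comparison with the largest differences, and the most abundant marker of each cell type list, with Csf1r, C1qa and the markers listed at 0 named besides for the label check and Orc3, Orc4 and Orc5 to complete the origin complex, chosen after their values were seen. Positions are from GENCODE on GRCm38. Computation used Python 3.11.15, numpy 2.4.6, pandas 2.3.3 and scipy 1.17.1. Alternatives were pseudocounts of 0.1 and 5, no filter, an FPKM filter of 30, rescaling to equal sums (TPM) and the size factors above. Genes listed at 0 in either library were left out in a further alternative. Size factors over 4580 genes of at least 1 in all libraries were added after seeing the data.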

Additional observations from a re-analysis of the deposited data

How the results depend on the processing

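Of the recomputed member counts, 68 were equal to the main count or within 1.5 times of it, and 28 were not. Of the recomputed medians, 37 lay within a binomial 95% interval of the main median over the members, 8 lay outside it and 3 changed sign. That interval takes the genes as independent and allows changes in size. For liver MCPs against EMPs, -0.10 with equal sums against -0.23 lay within it. Medians without a filter could not move, because the main medians were already over all 41 genes. No paired analysis was possible because each group has 1 library, and for the same reason no replicate could be left out. With median-of-ratios scaling, the medians were -1.48 for skin against limb E14.5, -0.0947 for the macrophage-labelled library against EMPs and -0.11, a reversed sign, for liver MCPs against the macrophage-labelled library. The size factors over 4580 genes gave -1.75, -0.126 and -0.0721 for the same 3. An FPKM filter of 30 gave medians of -3.38 (skin), -0.42 (liver MCPs against EMPs) and -0.14, again reversed, for liver MCPs against the macrophage-labelled library. For skin, a pseudocount of 0.1 gave -3.29 and a pseudocount of 5 gave -1.31.

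Counts of members called moved as follows, each as called of those that passed, with the share of all genes called the same way in parentheses. For limb E14.5 against E11.5, those called higher were 2 of 23 with a pseudocount of 5 (5.02%), 8 of 41 without a filter (5.24%), 3 of 9 at an FPKM of 30 (9.49%), 3 of 22 scaled (7.57%) and 2 of 22 with the second size factors (6.75%), and those called lower were 0 of 9 at an FPKM of 30 (5.96%). For liver MCPs against EMPs, those called higher were 2 of 41 without a filter (4.87%), 0 of 10 at an FPKM of 30 (9.31%) and 3 of 41 with equal sums (15.5%), and those called lower were 2 of 30 with a pseudocount of 5 (10.1%) and 3 of 10 at an FPKM of 30 (19.6%). For liver MCPs against the macrophage-labelled library, those called higher were 1 of 30 with a pseudocount of 5 (11.8%), 7 of 41 without a filter (8.74%), 0 of 10 at an FPKM of 30 (19.8%), 1 of 26 scaled (10.8%), 8 of 40 with equal sums (24%) and 1 of 27 with the second size factors (12%), and those called lower were 0 of 30 with a pseudocount of 5 (11.8%). For the macrophage-labelled library against EMPs, those called lower were 2 of 41 without a filter (5.03%) and 3 of 40 with equal sums (13.5%). For limb E11.5 against liver MCPs, those called lower were 5 of 30 with a pseudocount of 5 (8.07%), 2 of 8 at an FPKM of 30 (14.1%), 7 of 25 scaled (10.4%) and 7 of 26 with the second size factors (9.92%). For skin against limb E14.5, those called higher were 1 of 22 scaled (33.4%) and 1 of 39 with equal sums (15.9%), and those called lower were 36 of 41 without a filter (27.7%) and 9 of 9 at an FPKM of 30 (65%). Depth limits members under about 1 FPKM, where a value rests on few fragments.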
